A study of Mus musculus with 36 samples.

Results

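The passenger strands of the let-7 family are the RNAs cut from the opposite arm of the hairpins that make the let-7 microRNAs (miRNAs). The 9 members were taken by name from the deposited counts: mmu-let-7a-1-3p, mmu-let-7b-3p, mmu-let-7c-2-3p, mmu-let-7d-3p, mmu-let-7f-1-3p, mmu-let-7f-2-3p, mmu-let-7g-3p, mmu-let-7i-3p and mmu-miR-98-3p (written without mmu below), of 1966 mature mouse miRNA names in all. The study sequenced small RNAs of 36 libraries of CD4+ TCRb+ T cells, sorted from the spleens of C57BL/6J mice, to compare cells that lack Argonaute (AGO) proteins with controls. In the AGO1/3/4 experiment, WT and AGO134-/- cells were taken as naive cells (4 and 4 libraries), after 7 days of Th2 culture (4 and 4) and after 14 days of Th2 culture (3 and 3), and the series text calls the WT mice littermates. In the AGO2 experiment, both groups carry the T lineage driver CD4Cre and the R26LSLeYFP reporter, and the knockout adds the floxed allele AGO2f/f. That experiment has naive cells (3 control and 4 knockout libraries) and Th2 cultures (3 and 4), which the sample labels give as 5 days and the series text as 7. CD4Cre removes AGO2 in T cells as they develop, whereas the label AGO134-/- names no driver. Nothing in the labels gives the age of the mice or says that replicates came from separate animals, so p-values measure the spread between these libraries, which may be technical. In bulk libraries such as these, fewer cells that carry a miRNA and less of it per cell cannot be told apart.

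Each let-7 hairpin is cut by Drosha in the nucleus and by Dicer in the cytoplasm into a short duplex. An AGO protein usually keeps the guide strand, which in this family comes from the 5′ arm and pairs with messenger RNAs through its seed (bases 2 to 8), and the passenger strand from the 3′ arm is usually discarded and degraded. AGO proteins tend to keep the strand whose 5′ end is less tightly paired, with a preference for U or A as the first base. The let-7 guides are known for holding back proliferation and growth programmes, and in T cells they are known for maintaining the naive state. AGO2 is the AGO protein able to cut its targets, and it is the family member left in AGO134-/- cells.

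The mature passenger strands are printed first because some are identical or closely alike, which limits how far their counts can be separated. Sequences are from RefSeq (GRCm38.p6, 9 of 9 members matched), 5′ to 3′, with the seed in capitals.
let-7a-1-3p: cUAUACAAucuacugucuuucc
let-7c-2-3p: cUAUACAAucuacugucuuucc
let-7f-2-3p: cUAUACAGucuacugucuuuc
let-7f-1-3p: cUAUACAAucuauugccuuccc
let-7b-3p: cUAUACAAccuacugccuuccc
miR-98-3p: cUAUACAAcuuacuacuuuccu
let-7d-3p: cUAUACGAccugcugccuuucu
let-7i-3p: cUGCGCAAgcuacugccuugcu
let-7g-3p: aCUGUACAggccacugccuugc
The seed UAUACAA is shared by 5 members (let-7a-1-3p, let-7b-3p, let-7c-2-3p, let-7f-1-3p and miR-98-3p), and the other 4 have a seed each. 8 of the 9 begin with C and let-7g-3p begins with A. let-7a-1-3p and let-7c-2-3p are the same sequence. Their counts differed in 2 of the 36 libraries, by 1 count, so they are treated as 1 measurement, written let-7a-1/c-2-3p. Counted from 1 at the 5′ end, let-7f-2-3p differs from them by A8G and is 21 bases long where they have 22. The next closest pair is let-7b-3p and let-7f-1-3p, which differ by C9U and C13U. Members this alike can share reads in the authors' counting, and their separate values are uncertain to that extent.

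The guides they are paired with in the hairpins hold the let-7 seed GAGGUAG, shown here for let-7a, let-7b, let-7c, let-7d and let-7f.
let-7a-5p: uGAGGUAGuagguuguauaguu
let-7b-5p: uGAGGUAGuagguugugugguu
let-7c-5p: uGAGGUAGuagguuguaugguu
let-7d-5p: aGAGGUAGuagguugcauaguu
let-7f-5p: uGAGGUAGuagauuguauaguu
7 of the 8 guides begin with U, and let-7d-5p begins with A. Guides of the names let-7a, let-7c and let-7f come from more than 1 hairpin each, so a ratio of let-7a-1-3p, let-7c-2-3p, let-7f-1-3p or let-7f-2-3p to its guide is not that of a single hairpin.

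The hairpins lie at 5 places in the genome (GRCm38, mature passenger strand). On chromosome 13, let-7a-1-3p (chr13:48538188-48538209), let-7f-1-3p (chr13:48537833-48537854) and let-7d-3p (chr13:48536024-48536045) lie on the minus strand in an exon of the long noncoding RNA 6720427I07Rik. On chromosome 15, let-7c-2-3p (chr15:85706664-85706685) and let-7b-3p (chr15:85707379-85707400) lie on the plus strand in an exon of Lncppara. On the X chromosome, let-7f-2-3p (chrX:151912403-151912423) and miR-98-3p (chrX:151913287-151913308) lie on the plus strand in an intron of Huwe1, a ubiquitin ligase. let-7g-3p (chr9:106178902-106178923) lies in an intron of Wdr82, and let-7i-3p (chr10:122985642-122985663) in an exon of the pseudogene transcript D630033A02Rik. The hairpin of let-7d, whose passenger strand was the most abundant, and that of let-7b, the next most abundant in naive cells, are printed with that of let-7c-2, from the same transcript as let-7b, and with the passenger arm in capitals.
Mirlet7d: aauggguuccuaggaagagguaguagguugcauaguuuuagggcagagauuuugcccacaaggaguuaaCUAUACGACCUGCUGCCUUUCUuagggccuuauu
Mirlet7b: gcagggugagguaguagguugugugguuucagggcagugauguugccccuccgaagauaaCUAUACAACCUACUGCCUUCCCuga
Mirlet7c-2: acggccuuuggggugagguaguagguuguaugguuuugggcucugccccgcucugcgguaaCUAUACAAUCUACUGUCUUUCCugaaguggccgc

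The AGO1/3/4 libraries held 64264 to 273724 miRNA counts and the AGO2 libraries 596 to 58357. A count of 0 allows up to 3 counts, which is 10.96 to 46.7 counts per 1000000 miRNA counts (CPM) in the first experiment and 51.4 to 5034 CPM in the second. AGO134-/- libraries were shallower than WT at each stage, with mean totals of 143644 against 223239 in naive cells, 172294 against 255368 at day 7 and 210699 against 260868 at day 14. The shallowest were AGO134-/- replicate 4 in naive cells (64264) and at day 7 (125803). The 6 miRNAs listed as CD4 T cell markers were present in every group, summing to 65526 to 151111 CPM over the AGO1/3/4 libraries. Whether this list is particular to CD4 T cells was not tested. Markers of other cells summed to 0 to 40.7 CPM for 2 myeloid miRNAs, 74.3 to 867.5 for 3 of red cells and platelets, 46.7 to 743.6 for 4 of endothelial and stromal cells, and 607.5 to 4177 for 8 of epithelial, liver and muscle cells. The last list was lower with time in culture (3524 to 4156 CPM in WT naive cells, 1666 to 2117 at day 7, 607.5 to 664.8 at day 14). Their part in the results below was not tested.

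let-7d-3p made up most of the passenger counts of the family. Levels are CPM after TMM scaling (a scaling by the bulk of the miRNAs), as mean ± SD. In WT naive cells its 4 libraries held 10564, 11391, 10148 and 10347 CPM (10613 ± 546), which was 91.6% ± 1.32 (SD, n = 4) of the passenger counts of the family. The share was 81.5% ± 3.53 (SD, n = 4) in WT cells at day 7. In the Th2 cultures of the AGO2 experiment it was 81.4% ± 6.29 (SD, n = 3) in controls and 69.9% ± 9.3 (SD, n = 4) in the knockout. All other members were far lower in the AGO1/3/4 libraries.

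In WT naive cells let-7b-3p followed at 457.2 ± 76.8 CPM and let-7a-1/c-2-3p at 255.6 ± 26.1, and the libraries of these members did not overlap. let-7f-2-3p stood at 125.0 ± 21.5 CPM and let-7f-1-3p at 75.1 ± 24.7, also without overlap. let-7i-3p (29.0 ± 19.6 CPM), miR-98-3p (14.0 ± 15.3) and let-7g-3p (9.22 ± 7.10) overlapped one another and lay at or near the floor, and the highest let-7i-3p library lay above the lowest of let-7f-1-3p. By day 7 the second place had passed to let-7a-1/c-2-3p at 983.5 ± 113, far above let-7f-2-3p (156.8 ± 20.2) and let-7b-3p (111.2 ± 9.21).

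**Figure D1:**
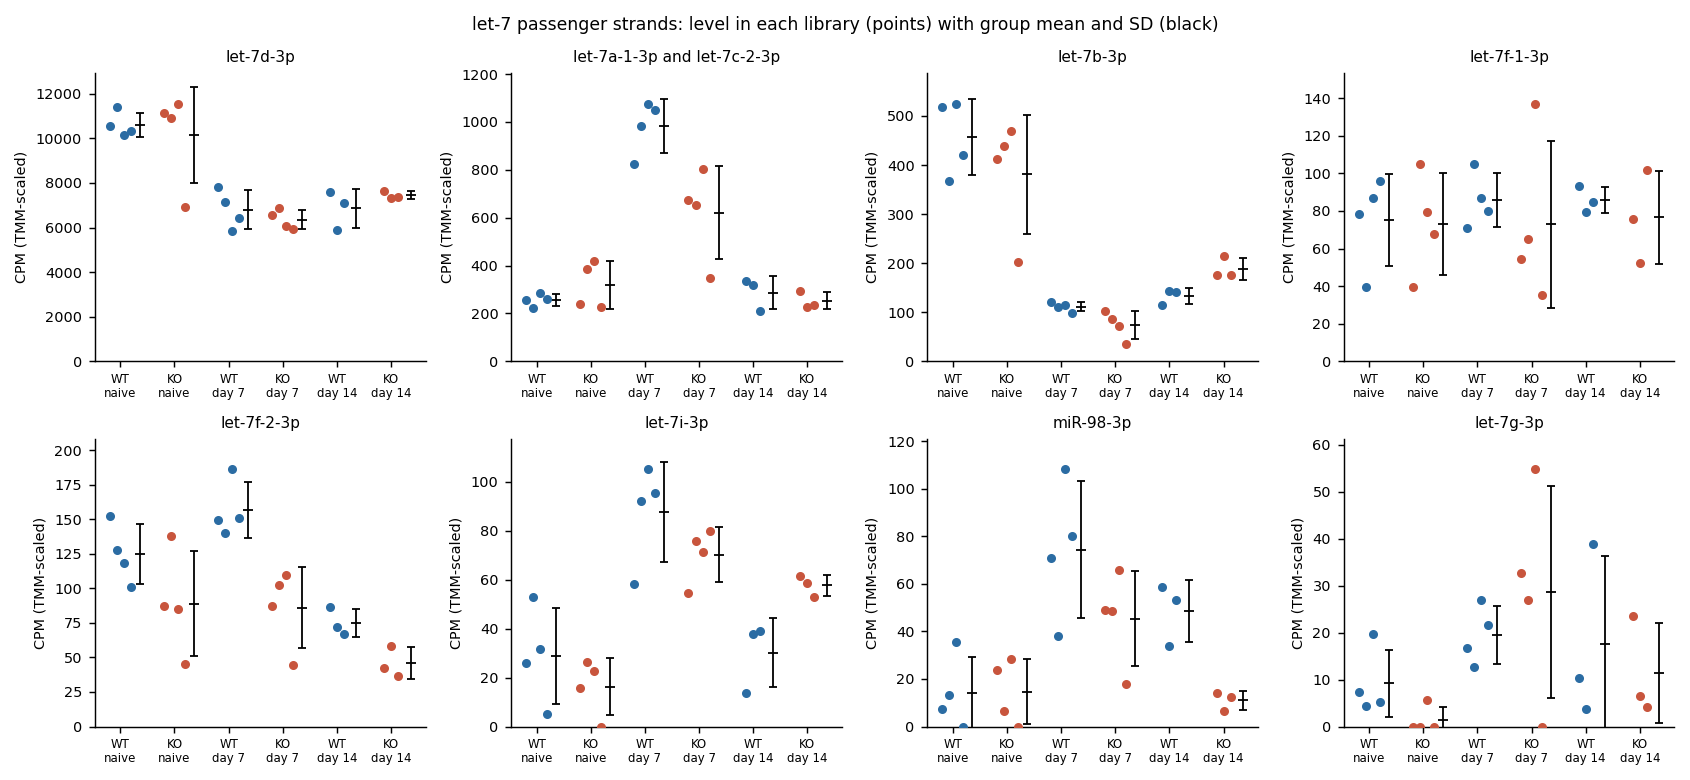
Level of each let-7 passenger strand (CPM after TMM scaling, y axis, each panel on its own scale from 0) in every AGO1/3/4 library by group (x axis; blue WT, red AGO134-/-, marked KO), with the group mean and SD in black, bars cut at 0. let-7d-3p stood between 5826 and 11538 CPM, and let-7a-1/c-2-3p stood above 800 CPM in each WT day 7 library and below 340 in each WT naive and day 14 library.

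let-7d also kept far more passenger strand relative to its guide than the rest of the family. In WT naive cells let-7d-3p took 38.1%, 34.6%, 34.4% and 31.7% of the counts of its 2 arms (34.7% ± 2.64, SD, n = 4). The next highest was let-7b-3p at 2.46% ± 0.565, and let-7c-2-3p (0.957% ± 0.179) and let-7a-1-3p (0.675% ± 0.159) took less still. Below these, let-7f-2-3p, let-7f-1-3p, miR-98-3p, let-7i-3p and let-7g-3p had means from 0.0395% to 0.299%. Over the 114 hairpins with both arms tested, the median share of the rarer arm was 9.98%. let-7d lay above that median, with 20 hairpins higher, whereas 80 to 110 hairpins had a higher share than the other members tested.

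In WT cells let-7a-1/c-2-3p, let-7i-3p and miR-98-3p rose from naive to day 7, and let-7b-3p and let-7d-3p fell. The comparison of naive with day 7 cells asks what changes on activation, and most miRNAs were called: of 382 tested, 76.4% were called, 39.5% higher and 36.9% lower (edgeR's quasi-likelihood test, Benjamini-Hochberg adjusted p under 0.05). 7 distinct passenger sequences passed the filter on low counts, all except let-7g-3p, and of these 3 rose and 2 fell. That is near the shares over all 382, so such a split is not particular to this family. The median log2 change of the 7 was 0.32, beside 0.11 over the 382.

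let-7a-1/c-2-3p rose from 256.9, 220.8, 283.8 and 260.8 CPM in naive cells to 824.0, 983.8, 1075 and 1052 at day 7. Every day 7 library lay above every naive library, and groups that do not overlap were seen for 74.6% of all tested miRNAs. The log2 fold change was 1.94 ± 0.20 (SE), with an edgeR adjusted p of 7.83e-10. The let-7a-5p and let-7c-5p guides went the other way, falling by 0.75 ± 0.19 and 0.74 ± 0.16 on the log2 scale (edgeR adjusted p = 0.000764 and 0.000146). The share of let-7c-2-3p in both arms rose with this from 0.957% ± 0.179 to 5.86% ± 1.24 (SD, n = 4 and 4), and that of let-7a-1-3p from 0.675% ± 0.159 to 4.12% ± 0.728.

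Markers of endothelial and stromal cells were also higher at day 7 (622.6 to 743.6 summed CPM against 119.0 to 301.6 in WT naive cells). The liver marker mmu-miR-122-5p, from a list that was lower in sum, also rose to day 7 in WT cells. By day 14 it had fallen below its naive level. For let-7a-1/c-2-3p the WT day 14 libraries (208.5 to 335.5 CPM after TMM scaling) overlapped the naive ones (220.8 to 283.8 CPM). Change from naive to day 14 was not tested. For mmu-miR-122-5p the WT libraries held 244.5 to 290.6 CPM in naive cells, 584.5 to 1004 at day 7 and 26.6 to 49.1 at day 14 (CPM before TMM scaling). At day 7 its AGO134-/- libraries held 464.3 to 764.5 CPM, overlapping WT. The part of these markers in the results for let-7a-1/c-2-3p and the other members was not tested.

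let-7b-3p fell. It lies in the same noncoding transcript as let-7c-2-3p, but the rise of the shared let-7a-1/c-2-3p sequence cannot be assigned to either of its hairpins, so these neighbours cannot be compared. It went from 517.6, 366.5, 524.2 and 420.5 CPM to 120.7, 111.4, 114.1 and 98.7, with no overlap. The log2 fold change was -2.04 ± 0.19 (edgeR adjusted p = 1.16e-10). Its guide let-7b-5p also fell, by 0.79 ± 0.14 (edgeR adjusted p = 9.17e-06), which is less than the passenger strand.

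let-7d-3p fell from 10613 ± 546 to 6804 ± 869 CPM (7828, 7142, 5826 and 6418 at day 7), again with no overlap. The log2 fold change was -0.64 ± 0.13 (edgeR adjusted p = 5.40e-05). This call depends on the scaling: with library size set by the STD entries of the files, it was -0.039 (adjusted p = 0.894). That scaling shifted the log2 changes of all tested miRNAs by a median of 0.61. Its guide changed by -0.26 ± 0.12 (edgeR adjusted p = 0.0546).

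let-7i-3p and miR-98-3p were near the floor in naive cells and rose. let-7i-3p went from 26.1, 53.0, 31.5 and 5.32 CPM to 58.3, 92.3, 105.1 and 95.6, a log2 fold change of 1.56 ± 0.34 (edgeR adjusted p = 0.000130). miR-98-3p went from 7.45, 13.3, 35.5 and 0 CPM to 70.8, 38.2, 108.1 and 80.2, a log2 fold change of 2.29 ± 0.46 (edgeR adjusted p = 6.16e-05). Neither overlapped between naive and day 7. The guides let-7i-5p and miR-98-5p were not called (edgeR adjusted p = 0.608 and 0.820).

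let-7f-1-3p and let-7f-2-3p were not called in this comparison (edgeR adjusted p = 0.525 and 0.154), and their naive and day 7 libraries overlapped. With STD scaling both were called higher (0.82 and 0.92, adjusted p = 0.0393 and 0.00544). let-7g-3p had too few counts for the fit: 9 counts summed over the WT naive libraries and 24 at day 7, a CPM ratio of 2.33 with a 95% exact binomial interval of 1.05 to 5.70, which covers counting error only. Of the 8 guides, 5 fell and 0 rose, with a median log2 change of -0.42, but with STD scaling 4 rose and 0 fell (median 0.20).

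**Figure D2:**
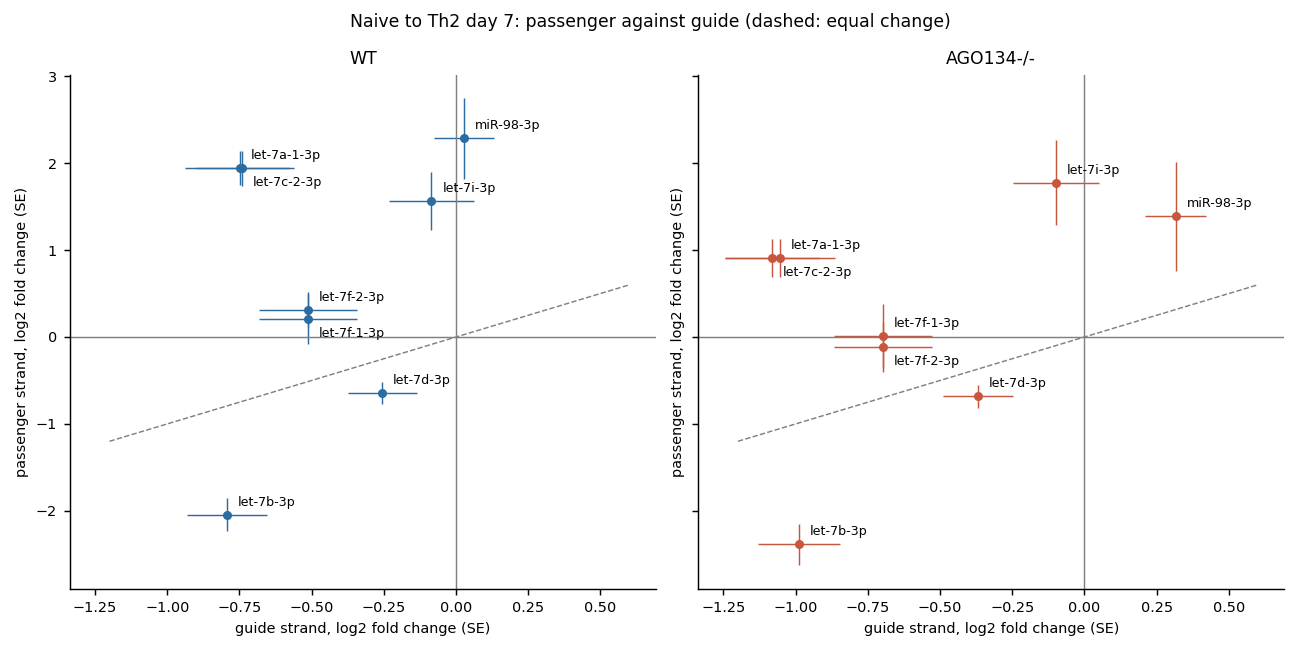
Log2 fold change from naive to Th2 day 7 of each passenger strand (y axis) against its guide (x axis), in WT (left, blue) and AGO134-/- cells (right, red), with SE bars; the dashed line marks equal change. let-7a-1-3p and let-7c-2-3p lie far above the line, at 1.94 against guide changes near -0.75 in WT, and let-7b-3p lies below it; with STD scaling the median guide change turns from -0.42 to 0.20 in WT.

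The ratio of passenger to guide within a library does not depend on library scaling, and gave the same division except for let-7d, which was not called. Among 114 hairpins 56.1% were called: 31.6% had a higher ratio at day 7 and 24.6% a lower one (limma on log2 ratios, adjusted p under 0.05). let-7a-1 rose by 2.66 ± 0.40 (limma adjusted p = 1.84e-05), let-7c-2 by 2.67 ± 0.36 (4.42e-06), let-7i by 1.87 ± 0.51 (0.00438) and miR-98 by 2.68 ± 0.62 (0.00138). let-7b fell by 1.20 ± 0.33 (limma adjusted p = 0.00500). In each of these except miR-98 the naive and day 7 libraries did not overlap (54.4% of all hairpins), and the exact permutation test gave a two-sided p of 0.0286, the smallest it can give for 4 against 4. let-7d was not called (-0.40 ± 0.24, limma adjusted p = 0.161), although its shares did not overlap (31.7% to 38.1% against 27.0% to 30.7%). let-7f-2 was not called either (0.83 ± 0.40, limma adjusted p = 0.0823), also without overlap. In the exact test both had a p of 0.0286 before adjustment.

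From day 7 to day 14 in WT cells let-7a-1/c-2-3p, let-7i-3p and let-7f-2-3p fell. The endothelial and stromal markers were lower as well without overlap (342.0 to 441.5 summed CPM at day 14 against 622.6 to 743.6), as were those of epithelial, liver and muscle cells, and their part was not tested. Of the 382 miRNAs 50% were called, 24.9% lower and 25.1% higher, and of the 7 passenger sequences 3 fell and 0 rose. Their median log2 change was -0.61, beside -0.03 over all tested. Of the 8 guides 0 were called by edgeR, 0 had an unadjusted p under 0.05, and 1 was called by DESeq2 (higher). With edgeR, library size only called 3 lower and STD scaling 2 lower, with 0 higher in both.

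let-7a-1/c-2-3p stood at 335.5, 317.2 and 208.5 CPM at day 14, each below the lowest day 7 library (824.0), where 52.6% of all tested miRNAs did not overlap. The log2 fold change was -1.78 ± 0.22 (edgeR adjusted p = 8.32e-08). let-7i-3p fell to 13.8, 37.8 and 38.9 CPM, a change of -1.56 ± 0.36 (edgeR adjusted p = 0.000613), below the lowest day 7 library at 58.3. let-7f-2-3p went from 149.8, 140.1, 186.1 and 151.1 CPM to 86.5, 71.8 and 67.2, with no overlap and a change of -1.06 ± 0.23 (edgeR adjusted p = 0.000419). let-7b-3p (133.0 ± 16.4 CPM), let-7d-3p (6867 ± 879), let-7f-1-3p (85.8 ± 7.10) and miR-98-3p (48.6 ± 12.98) were not called, and their day 7 and day 14 libraries overlapped.

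In the passenger to guide ratio, 17.5% of hairpins were called between day 7 and day 14, 10.5% lower and 7.02% higher, and 43% did not overlap. let-7a-1 (-1.998 ± 0.43, limma adjusted p = 0.00262) and let-7c-2 (-1.64 ± 0.38, 0.00473) fell. let-7f-2 (-1.28 ± 0.43, limma adjusted p = 0.0414) and let-7i (-1.65 ± 0.55, 0.0414) fell as well, but those 2 calls were lost with no filter on low counts (adjusted p = 0.113 and 0.104). The let-7f-2 call was lost without any single one of the 7 libraries, and the let-7i call without 6 of the 7 (adjusted p up to 0.146 and 0.182).

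In AGO134-/- cells, from naive to day 7, with 74.1% of miRNAs called, 39.8% higher and 34.3% lower, 3 of the 7 sequences rose and 2 fell, while of the 8 guides 1 rose and 6 fell (median -0.61; with STD scaling 4 rose and 0 fell, median 0.25). let-7a-1/c-2-3p went from 238.2, 387.1, 419.2 and 225.3 CPM to 674.9, 654.1, 805.1 and 346.3, where the lowest day 7 library, replicate 4, lay within the naive range. The log2 change was 0.91 ± 0.22 (edgeR adjusted p = 0.000537). let-7b-3p fell from 381.3 ± 121 to 74.2 ± 28.9 CPM without overlap, where 60.7% of all tested miRNAs did not overlap (-2.39 ± 0.24, edgeR adjusted p = 5.51e-10).

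let-7d-3p fell by 0.68 ± 0.13 on the log2 scale (edgeR adjusted p = 3.37e-05), and this too was lost with STD scaling, at 0.046 (adjusted p = 0.869). let-7i-3p rose by 1.78 ± 0.49 (edgeR adjusted p = 0.00191), from 15.9, 26.2, 22.7 and 0 CPM to 54.4, 75.7, 71.2 and 79.9. miR-98-3p was called narrowly at 1.39 ± 0.62 (edgeR adjusted p = 0.0463), with overlapping libraries. Leaving out any 1 of 6 of the 8 libraries (naive replicates 1, 2 and 4, day 7 replicates 1, 2 and 3) ended the miR-98-3p call (adjusted p up to 0.177). let-7g-3p held 1 count over the 4 naive libraries and 21 over the 4 at day 7, a CPM ratio of 17.5 with an interval of 2.82 to 724.

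From day 7 to day 14 in AGO134-/- cells, 44.8% of miRNAs were called, 23.3% lower and 21.5% higher, and of the 7 sequences 3 fell and 1 rose. let-7a-1/c-2-3p fell by 1.31 ± 0.23 (edgeR adjusted p = 4.28e-05), to 293.2, 227.7 and 236.3 CPM. let-7b-3p rose by 1.26 ± 0.27 (edgeR adjusted p = 0.000334), from 103.4, 86.5, 71.2 and 35.5 CPM to 175.0, 214.6 and 175.2, without overlap (again 44.8% of all). let-7f-2-3p (-0.999 ± 0.32, edgeR adjusted p = 0.0126) and miR-98-3p (-2.01 ± 0.65, 0.0129) fell, the first with overlapping libraries. let-7d-3p lay higher at day 14 without overlap and was not called (0.23 ± 0.14, adjusted p = 0.179). The calls of let-7f-2-3p and miR-98-3p were both lost without day 7 replicate 3 or without day 14 replicate 4. The miR-98-3p call was also lost without day 14 replicate 3 (adjusted p from 0.0514 to 0.105 over all of these). STD scaling and the absence of a filter each ended the let-7f-2-3p call as well (adjusted p = 0.0553 and 0.0672).

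**Figure D3:**
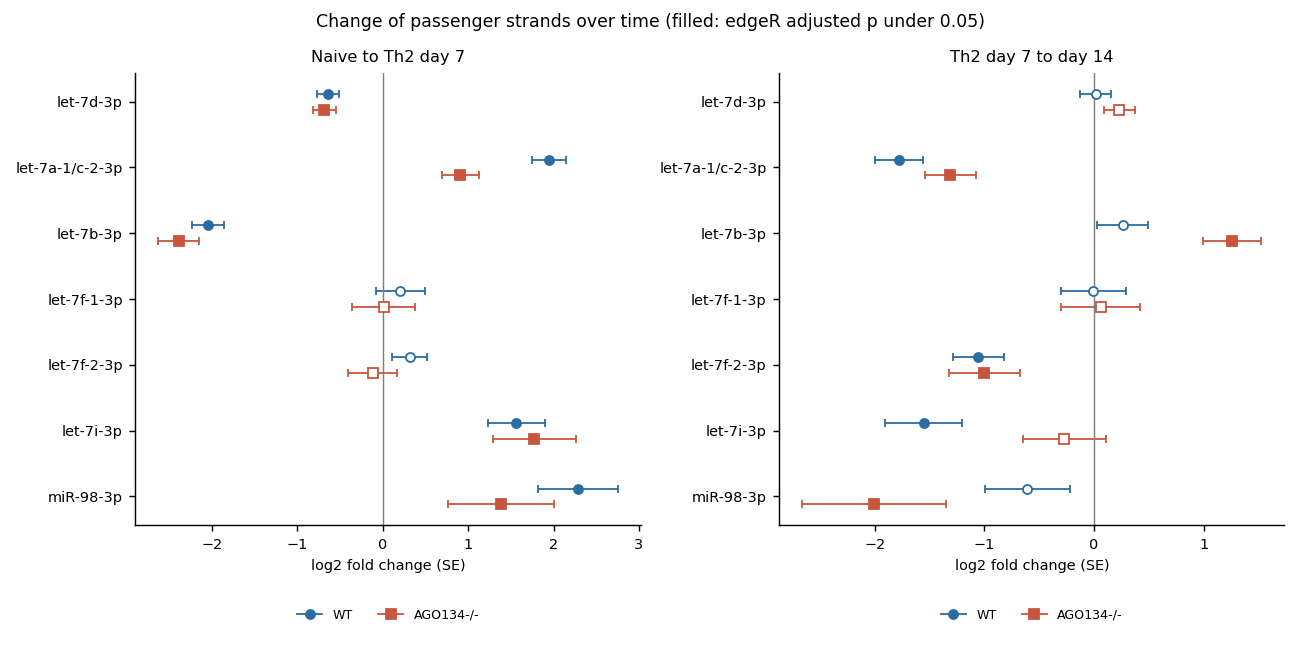
Log2 fold change with SE (x axis) of the 7 tested passenger sequences (y axis) from naive to Th2 day 7 (left) and from day 7 to day 14 (right), in WT (blue circles) and AGO134-/- cells (red squares); filled symbols passed edgeR's test. In the left panel let-7a-1/c-2-3p is at 1.94 in WT and 0.91 in AGO134-/- cells, and let-7b-3p is near -2 in both.

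Loss of AGO1, AGO3 and AGO4 left the passenger strands of naive cells uncalled, while the guides were higher, and neither held with STD scaling. In naive cells 18.3% of the 382 miRNAs were called between genotypes (8.12% higher, 10.2% lower), and 18.8% did not overlap. Of the 7 passenger sequences 0 were called and all overlapped between genotypes, with 0 at an unadjusted p under 0.05 in edgeR and 0 called by DESeq2. Of the 8 guides, 7 were higher and 0 lower, with a median log2 difference of 0.60. With library size only 4 were higher and 0 lower (0.26), and with STD scaling 0 were higher and 4 lower (-0.26). With STD scaling 3 passenger sequences were also called lower: let-7b-3p (-0.92, edgeR adjusted p = 0.0112), let-7d-3p (-0.79, 0.00596) and let-7f-2-3p (-1.11, 0.00827). let-7d-3p stood at 11147, 10936, 11538 and 6939 CPM in AGO134-/- cells against 10148 to 11391 in WT, a log2 difference of -0.059 ± 0.13 (edgeR adjusted p = 0.768), and replicate 4, the shallowest library, was the low one. The T cell markers summed to 126374 to 151111 CPM in AGO134-/- and 108739 to 117852 in WT naive cells, and their part was not tested. Without that library the difference was 0.11 (adjusted p = 0.546).

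At day 7, with 14.4% of miRNAs called and 5.76% lower, 2 of the 7 passenger sequences were lower in AGO134-/- cells and 0 higher, and of the 8 guides 4 were higher (8.64% of all) and 0 lower, against 0 higher and 2 lower with STD scaling. The median log2 difference was -0.51 over the 7 passenger sequences and 0.40 over the guides, beside -0.02 over all tested. Fewer guides were called higher with DESeq2 (2), DESeq2 size factors (1), no filter (1) and library size only (0), and 0 lower in each. let-7a-1/c-2-3p stood at 674.9, 654.1, 805.1 and 346.3 CPM against 824.0 to 1075 in WT. All 4 AGO134-/- libraries lay below all 4 WT libraries (19.9% of miRNAs did not overlap), though the highest was close to the lowest WT library. The log2 difference was -0.65 ± 0.19 (edgeR adjusted p = 0.0191). It was not called without AGO134-/- replicate 4 (-0.47, adjusted p = 0.0967), WT replicate 3 (adjusted p = 0.0521) or WT replicate 4 (0.0501). The endothelial and stromal markers were 369.3 to 628.4 summed CPM in AGO134-/- and 622.6 to 743.6 in WT cells at day 7, which overlapped. Separate between genotypes were the epithelial, liver and muscle markers (1424.6 to 1665.1 against 1665.9 to 2116.5) and the T cell markers (90452.7 to 92937.1 against 76188.9 to 88800.4). The part of these lists was not tested.

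let-7f-2-3p, which differs from that sequence at 1 position, stood at 87.1, 102.7, 109.5 and 44.4 CPM in AGO134-/- cells at day 7 against 140.1 to 186.1 in WT, with no overlap. Its log2 difference was -0.81 ± 0.23 (edgeR adjusted p = 0.0176), lost without AGO134-/- replicate 4 (-0.65, adjusted p = 0.0775) or WT replicate 3 (adjusted p = 0.0598). DESeq2 gave it no adjusted p. let-7b-3p (35.5 to 103.4 against 98.7 to 120.7 CPM), let-7d-3p (5931 to 6855 against 5826 to 7828), let-7f-1-3p, let-7i-3p and miR-98-3p overlapped between genotypes and were not called. let-7g-3p held 21 counts against 24 in WT, a CPM ratio of 1.30 with an interval of 0.687 to 2.43.

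At day 14, with 19.6% of miRNAs called (8.9% higher, 10.7% lower), miR-98-3p was lower in AGO134-/- cells and the other 6 sequences were not called. Its 3 AGO134-/- libraries held 3, 1 and 3 counts (14.2, 6.504 and 12.2 CPM) and the WT libraries 17, 9 and 15 (58.8, 34.0 and 53.0 CPM), with no overlap, which held for 37.4% of all miRNAs. The log2 difference was -2.04 ± 0.64 (edgeR adjusted p = 0.0225), and leaving out WT replicate 1 or 3 or AGO134-/- replicate 3 or 4 ended the call (adjusted p from 0.0525 to 0.0887). Its guide miR-98-5p was not called (-0.19 ± 0.12, edgeR adjusted p = 0.294). Of the 8 guides 2 were called higher (let-7b-5p and let-7g-5p) and 0 lower. With DESeq2, DESeq2 size factors or no filter 0 guides were called. Library size only gave 1 higher and 1 lower, and STD scaling 0 higher and 1 lower. let-7f-2-3p again lay lower without overlap (42.6, 58.5 and 36.7 against 86.5, 71.8 and 67.2 CPM), at -0.75 ± 0.33 (edgeR adjusted p = 0.102). let-7i-3p lay higher without overlap (61.5, 58.5 and 53.0 against 13.8, 37.8 and 38.9 CPM), at 0.93 ± 0.43 (edgeR adjusted p = 0.125). let-7b-3p did as well (175.0, 214.6 and 175.2 against 114.1, 143.5 and 141.4 CPM), at 0.49 ± 0.24 (edgeR adjusted p = 0.156).

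**Figure D4:**
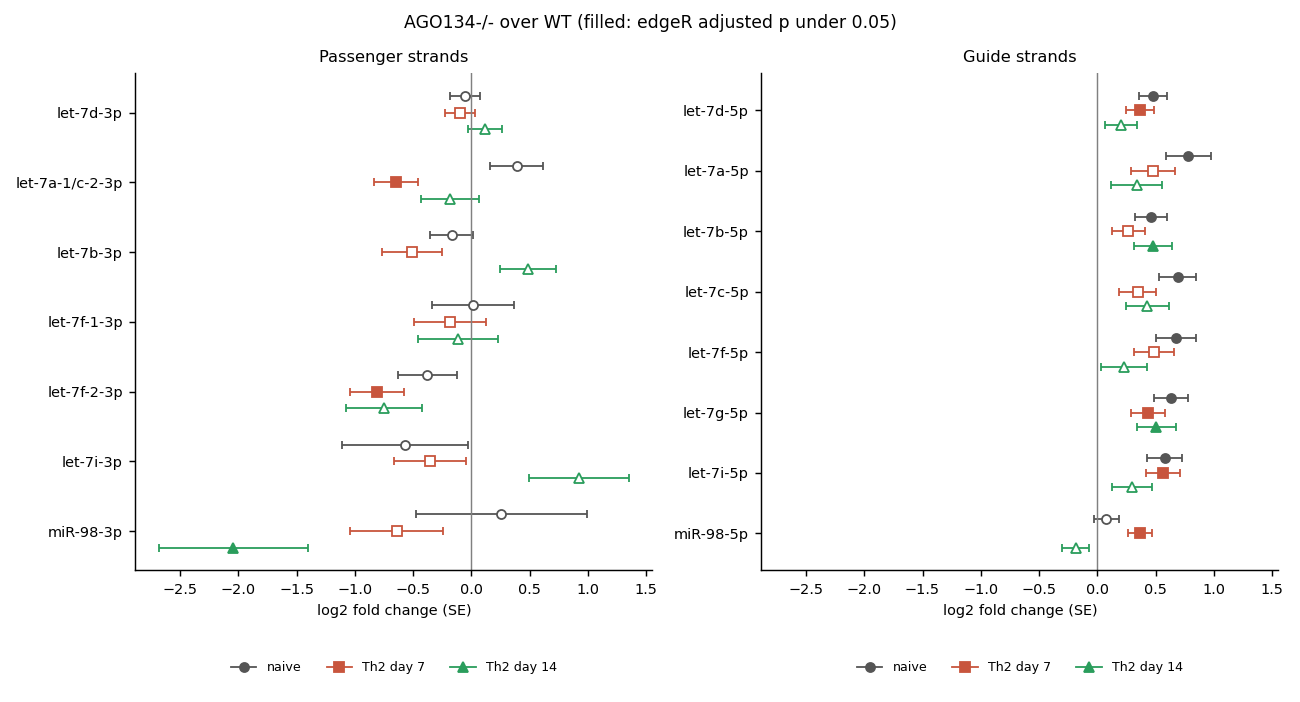
Log2 fold change of AGO134-/- over WT with SE (x axis) for the 7 tested passenger sequences (left) and the 8 guides (right) in naive cells (grey circles), at Th2 day 7 (red squares) and at day 14 (green triangles); filled symbols passed edgeR's test. Passenger strands that passed lie left of 0 and guides that passed lie right of 0; scaling to the STD entries shifts all tested miRNAs by a median of -0.73, -0.61 and -0.44 at the 3 stages, and the guides it calls are lower.

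Whether the genotype difference itself changed between stages was tested as an interaction. From naive to day 7, 2.36% of miRNAs were called, and 0 of the 7 passenger sequences. The edgeR count at an unadjusted p under 0.05 was 1, and 1 sequence was called with DESeq2. It was let-7a-1/c-2-3p, whose difference moved by -1.03 ± 0.30 (edgeR adjusted p = 0.0554). From day 7 to day 14, 12% of miRNAs were called and again 0 of the 7 sequences (2 at an unadjusted p under 0.05 in edgeR, 0 with DESeq2). let-7b-3p moved by 0.999 ± 0.35 (edgeR adjusted p = 0.0616) and let-7i-3p by 1.28 ± 0.53 (0.110).

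The scaling sets much of the genotype comparison in levels. STD scaling shifted the log2 differences of all tested miRNAs by a median of -0.73 in naive cells, -0.61 at day 7 and -0.44 at day 14, and library size alone by -0.28, -0.30 and -0.15. With STD scaling 3, 6 and 2 of the 7 passenger sequences were called lower at the 3 stages, among them let-7d-3p in naive cells (-0.79, adjusted p = 0.00596) and at day 7 (-0.70, adjusted p = 0.0233). Under the same scaling let-7a-1/c-2-3p in naive cells turned from 0.39 to -0.35 (adjusted p = 0.372).

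The passenger to guide ratio is free of that scaling. In naive cells 23.7% of 114 hairpins were called, 18.4% with a lower ratio in AGO134-/- cells and 5.26% with a higher one, with a median of -0.16, and 20.2% did not overlap. let-7f-2 was lower by the test at -1.12 ± 0.40 (limma adjusted p = 0.0452), and its libraries overlapped (0.0417% to 0.237% against 0.196% to 0.422%). At day 7, where 5.26% of hairpins were called (4.39% lower, 0.877% higher), let-7f-2 was again lower, at -1.37 ± 0.40 (limma adjusted p = 0.0465), without overlap (0.0845% to 0.321% against 0.431% to 0.628%). Both let-7f-2 calls were lost with no filter (adjusted p = 0.176 and 0.208), the naive one without any 1 of 5 of the 8 libraries and the day 7 one without any 1 of 7 of the 8 (adjusted p up to 0.195 and 0.250).

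Other hairpins had lower ratios at day 7 with libraries that did not overlap, which held for 22.8% of all hairpins. let-7d-3p took 25.1%, 24.8%, 22.1% and 19.1% of both arms in AGO134-/- cells against 29.9%, 30.7%, 27.0% and 27.3% in WT. let-7b-3p took 0.576% ± 0.216 against 1.06% ± 0.174, and let-7c-2-3p 2.996% ± 1.05 against 5.86% ± 1.24 (SD, n = 4 and 4). The limma test called none of these (-0.46 ± 0.24, adjusted p = 0.233 for let-7d; -0.92 ± 0.33, 0.110 for let-7b; -1.07 ± 0.36, 0.0756 for let-7c-2), while the exact permutation test gave each an unadjusted two-sided p of 0.0286. let-7a-1-3p took 2.04% ± 0.961 against 4.12% ± 0.728, with slight overlap (limma adjusted p = 0.0756). Over the 7 distinct sequences the median change in ratio was -0.92, beside -0.22 over all hairpins. At day 14, with 0.877% of hairpins called and 25.4% not overlapping, no member was called by limma, 1 sequence had an unadjusted limma p under 0.05, and 3 against 3 cannot give an exact p below 0.1. let-7d-3p then took 25.7% ± 1.96 in AGO134-/- cells and 26.8% ± 3.42 in WT (SD, n = 3 and 3), which overlapped. Without overlap were 3 of the 7 sequences, beside the 25.4% of all hairpins: let-7f-2 (-0.91 ± 0.46, limma adjusted p = 0.341) and miR-98 (-1.70 ± 0.72, 0.247) lay lower and let-7i (0.75 ± 0.59, 0.571) higher.

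**Figure D5:**
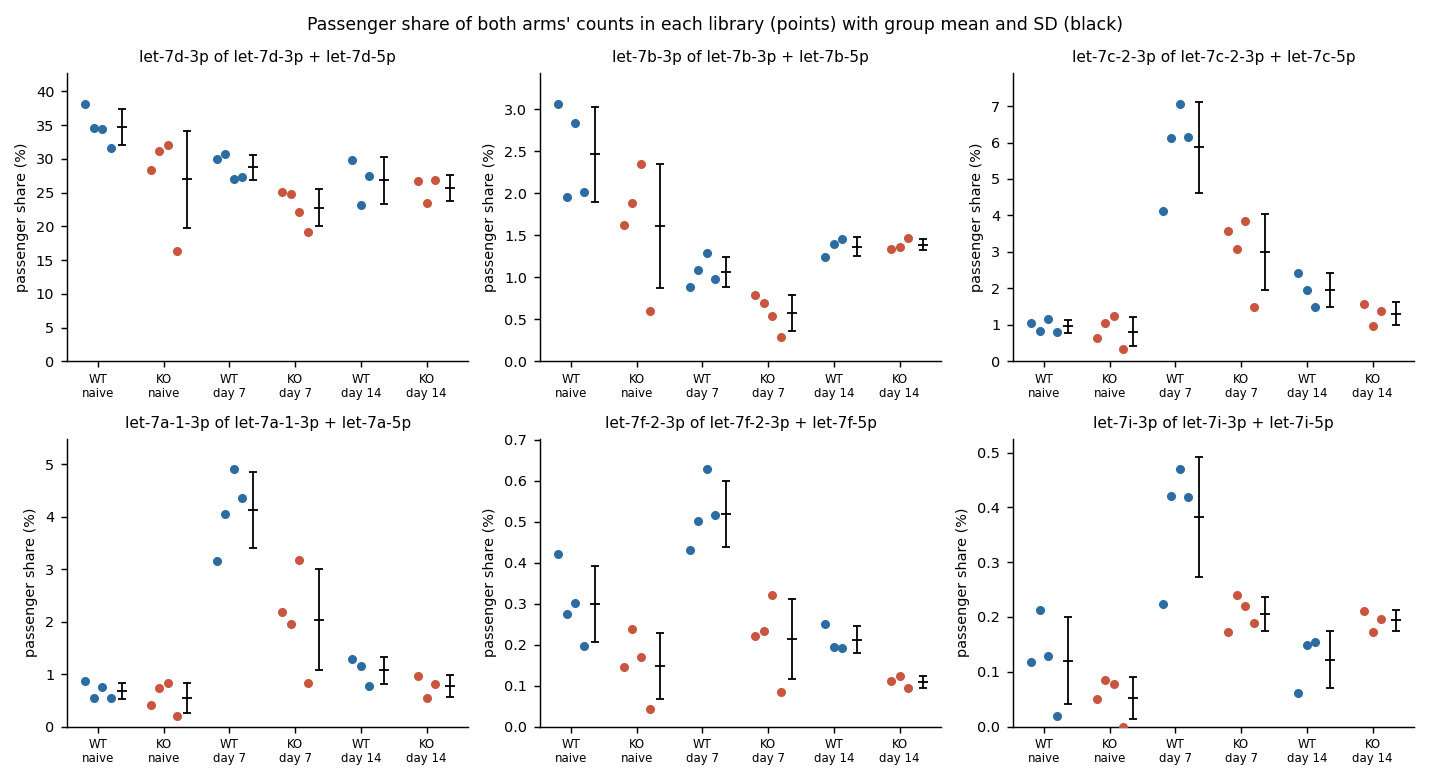
Passenger strand as a percentage of the counts of both arms (y axis, each panel from 0) in every AGO1/3/4 library by group (x axis; blue WT, red AGO134-/-, marked KO), with mean and SD in black. let-7d lies between 16.4% and 38.1% throughout, and the let-7a-1 and let-7c-2 shares peak in WT cells at day 7 (4.12% and 5.86% on average).

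The AGO2 experiment held enough counts to test let-7d-3p alone, 1 of the 98 miRNAs tested there. In naive cells it had 3, 0 and 4 counts in the CD4Cre controls and 12, 13, 4 and 3 in the AGO2 knockout. After 5 days of Th2 culture it stood at 1164, 1274 and 1832 CPM in the controls (83, 110 and 72 counts) and at 1558, 796.2, 1221 and 1212 CPM in the knockout (43, 6, 47 and 61 counts). The groups overlapped at both stages. The knockout differed by 0.51 ± 0.64 in naive cells (edgeR adjusted p = 0.678, with 9.18% of miRNAs called) and by -0.19 ± 0.30 at day 5 (adjusted p = 0.622, with 44.9% called), on the log2 scale. At day 5 STD scaling gave -1.87 (adjusted p = 0.000714), with a median shift of -1.69 over all tested miRNAs. From naive to Th2 cells let-7d-3p was not called in the controls (1.13 ± 0.58, edgeR adjusted p = 0.0989, with 56.1% called) or the knockout (0.43 ± 0.37, adjusted p = 0.309, with 51% called), and STD scaling called both higher (3.77 and 1.53, adjusted p = 1.06e-06 and 0.00826).

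let-7d-3p took 2.88% ± 0.261 of both arms in the CD4Cre Th2 cultures (SD, n = 3) and 4.11% ± 1.17 in the knockout (n = 4). Its ratio to the guide differed by 0.51 ± 0.66 (limma adjusted p = 0.693, with 27.3% of 11 hairpins called). These shares were far below the 28.7% ± 1.85 of WT Th2 cells at day 7 in the AGO1/3/4 experiment (SD, n = 4). The experiments differ in genotype, culture time and depth, and this difference was not tested. Of the other members, let-7a-1/c-2-3p had 11, 7 and 4 counts in the CD4Cre Th2 libraries and 7, 0, 7 and 17 in the knockout. let-7g-3p had 10 counts over the 3 control and 18 over the 4 knockout Th2 libraries, a CPM ratio of 2.41 with an interval of 1.06 to 5.85 that covers counting error only, and 14 of the 18 came from 1 library. let-7b-3p had 0 counts in the 3 control Th2 libraries and 5 over the 4 knockout ones. In naive cells of this experiment no member other than let-7d-3p exceeded 1 count in any library, and differences in them were not detectable at this depth.

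Other let-7 passenger strands with a 3p name were scarcely seen. let-7a-2-3p and let-7c-1-3p had 0 counts in all 36 libraries, and let-7e-3p had 1 to 13 counts summed over each AGO1/3/4 group. The entries let-7j and let-7k carry no arm in their names and are not taken as passenger strands here. In WT naive cells let-7j stood at 462.2 ± 21.6 CPM and let-7k at 67.05 ± 17.68 (SD, n = 4). let-7k fell from naive to day 7 in WT (-1.82 ± 0.37, edgeR adjusted p = 5.84e-05) and in AGO134-/- cells (-2.50 ± 0.53, 0.000134), and let-7j was higher in AGO134-/- cells at day 14 (0.59 ± 0.16, 0.00766).

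Over the 22 AGO1/3/4 libraries, the miRNAs outside the let-7 family whose log2 CPM followed let-7d-3p most closely among 363 candidates were miR-128-3p (Pearson r = 0.905), miR-219a-1-3p (0.883) and miR-466g (0.882). For the summed members they were miR-466g (0.893), miR-30a-5p (0.870) and miR-29a-3p (0.866). These values are descriptions over libraries that share their groups and their scaling.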

How the data were processed

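Small RNA libraries were made from total RNA with a TrueSeq Illumina kit, single-end per the labels and paired-end per the series text. The deposited values are whole-number read counts for each mature miRNA locus, made by the authors, per the file headers. The submitters' processing notes name GRCm38 as the build. Not given in the sources used here: aligner, counting tool, miRNA release, strand setting and use of molecular identifiers. Beside 2110 miRNA entries every library had 9 entries named STD, whose nature the labels do not state. They took 35.7% to 56.9% of counts in the AGO1/3/4 experiment and 32.0% to 86.7% in the AGO2 experiment, and entered neither library sizes nor tests. For a name with several locus entries the one with the highest total was used.

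The members, the lists and the tests were chosen with earlier results of these data known. The text names the 9 members, their guides, other let-7 passenger strands and the entries let-7j and let-7k. For likeness it names the 3 closest miRNAs by Pearson r (log2 CPM, prior count 2). let-7a-1-3p and let-7c-2-3p, the same sequence, were counted once, a choice made after seeing that their counts differ by 1 in 2 libraries. Groups came from the labels. Counts of each experiment were fitted whole with a mean per group, in edgeR 4.0.16 (R 4.3.3; TMM, filterByExpr at its minimum of 10 counts, quasi-likelihood test, Benjamini-Hochberg over all tested miRNAs). Each standard error is the one implied by the test. log2((passenger + 0.5)/(guide + 0.5)) was fitted per library in limma 3.58.1, over hairpins whose 2 arms passed the filter. Where a member was at low counts, summed counts were compared by an exact binomial interval (95%). Alternatives were DESeq2 1.42.0 as a test and as size factors, library size alone, STD scaling, no filter, a pseudocount of 1, exact permutation tests (not for 3 against 3 samples), leaving out each library and a replicate block. The steps were tested on simulated data. Across the 48 pairs of replicates the lowest chi-square per degree of freedom was 1.88, so none was taken as a repeat deposit. Sequences and positions are from RefSeq and GENCODE tables of GRCm38.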

Additional observations from a re-analysis of the deposited data

Results flagged for a closer look

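7 values stood apart from the other 3 libraries of their group by a gap test at the 95% level, among 51 groups of 4 examined. Chance alone gives about 1 in 20. The one at high counts was let-7d-3p in AGO134-/- naive replicate 4, at 6938.87 CPM where the other 3 libraries held 10936 to 11538 CPM. That library was also the shallowest of the AGO1/3/4 experiment (64264 miRNA counts), and its let-7a-5p guide, at 108273 CPM, was the highest among the 8 naive AGO1/3/4 libraries. The part of depth in this was not tested.

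The other 6 rest on 1 count each, and let-7a-1-3p and let-7c-2-3p, listed under both names here, are 1 sequence and 1 measurement. let-7a-1-3p, let-7c-2-3p, let-7f-1-3p and let-7f-2-3p each stood at 67.45 CPM in AGO2 knockout naive replicate D, with 0 in the others. miR-98-3p stood at 36.24 CPM in AGO2 knockout Th2 replicate D, and let-7g-3p at 5.664 CPM in AGO134-/- naive replicate 3, again with 0 in the others.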

How the results depend on the processing

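Every tested member was recomputed in every comparison. Of 546 values under other settings, 490 kept direction and side of the threshold, 9 lost and 23 gained a call, and 24 turned sign. Among the 490 are 10 DESeq2 values without an adjusted p, for which only the direction was compared. Exact permutation tests entered with unadjusted p-values under the same threshold of 0.05, so calls gained or lost there are not on a like footing. Of 905 with a library left out, 805 kept both, 45 lost and 15 gained a call, and 40 turned sign. Of those that turned, 1 and 0 had been called at first. Causes were not tested. Values below are log2 changes, AGO134-/- against WT where a stage is named.

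With STD scaling the one called value to turn was let-7d-3p from naive to day 7 in AGO134-/- cells (0.046). Others that turned with it were let-7a-1-3p (-0.35), let-7f-1-3p (-0.70) and miR-98-3p (-0.42) in naive cells, let-7d-3p at day 14 (-0.34), in WT from day 7 to day 14 (-0.16) and in the interaction from naive to day 7 (0.085), and let-7f-2-3p from naive to day 7 in AGO134-/- cells (0.61). With library size only, let-7f-1-3p (-0.26) and miR-98-3p (-0.010) turned in naive cells, let-7d-3p at day 14 (-0.044) and in WT from day 7 to day 14 (-0.12), and let-7f-2-3p from naive to day 7 in AGO134-/- cells (0.035). let-7d-3p in naive cells turned with DESeq2 size factors (0.019) and DESeq2 (0.022), as did let-7f-1-3p in WT from day 7 to day 14 (0.11 and 0.11). With no filter, let-7f-1-3p in naive cells (-0.031) and let-7d-3p in WT from day 7 to day 14 (-0.0042) turned.

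Called sequences, of 7, moved with STD scaling between genotypes to 3 in naive cells (from 0), 6 at day 7 (from 2) and 2 at day 14 (from 1), and to 1 (from 0) in the AGO2 experiment at day 5 between genotypes and over time in each genotype. DESeq2 called 1 at day 7, giving no adjusted p for let-7f-2-3p (none for 10 member values in all, kept out of lost calls). The interaction from naive to day 7 had 1 with DESeq2 size factors, DESeq2 or no filter. In ratios between genotypes, no filter gave 0 in naive cells and 0 at day 7 (from 1 each), and exact unadjusted tests 0 and 3, with the shared sequence counted by its let-7a-1 ratio (its let-7c-2 ratio also passed at day 7). From day 7 to day 14 in WT, no filter gave 1 (from 3).

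With a library left out, called sequences ranged from 0 to 2 at day 7 and 0 to 1 at day 14 between genotypes, 0 to 1 in each interaction, and 2 to 4 in AGO134-/- cells from day 7 to day 14. In ratios they ranged from 0 to 3 (naive) and 0 to 2 (day 7) between genotypes, and 1 to 2 in WT from day 7 to day 14. Values that turned sign ranged as follows. let-7d-3p ranged from -0.13 to 0.11 in naive cells, -0.23 to 0.025 in the interaction from naive to day 7, -0.080 to 0.11 in WT from day 7 to day 14, and -0.071 to 0.46 over time in the AGO2 knockout. let-7f-1-3p ranged from -0.23 to 0.28 in naive cells, -0.38 to 0.074 at day 14, -0.014 to 0.41 from naive to day 7 in WT and -0.51 to 0.23 in AGO134-/- cells, -0.073 to 0.10 from day 7 to day 14 in WT and -0.14 to 0.62 in AGO134-/- cells, and -0.14 to 0.65 in the interaction from day 7 to day 14. let-7f-2-3p ranged from -0.098 to 0.28 in that interaction and -0.26 to 0.13 from naive to day 7 in AGO134-/- cells, let-7i-3p from -0.21 to 0.35 in the interaction from naive to day 7, and miR-98-3p from -0.26 to 1.23 in naive cells. Ratios ranged from -0.14 to 1.23 for miR-98-3p in naive cells, and at day 14 from -0.038 to 0.079 for let-7b-3p and -0.22 to 0.035 for let-7d-3p.

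Same-numbered libraries correlated over 0.1 in 2 of 10 pairs across genotypes (-0.092 to 0.150) and in 1 of 14 across times, so the numbers were not taken to pair samples. With the replicate block, let-7b-3p in the interaction from day 7 to day 14 was called (1.18, adjusted p = 0.0236), making 1 sequence called (from 0), and let-7f-1-3p turned there (-0.012). Also with the block, let-7f-1-3p turned from day 7 to day 14 in WT (0.022) and in AGO134-/- cells (-0.084), let-7d-3p in WT (-0.0010), and the day 14 ratio of let-7d-3p (0.083). No paired analysis was possible between AGO2 genotypes because they share no replicate letters.

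Depth limits let-7g-3p, let-7i-3p and miR-98-3p in naive cells, and members other than let-7d-3p in the AGO2 experiment.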
